A study of Mus musculus with 6 samples.

Results

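The 10 genes described here are the BMP ligands Bmp4, Bmp6 and Bmp7, the 4 Id genes Id1, Id2, Id3 and Id4, and the Smads Smad6, Smad7 and Smad9. They were taken by symbol from a table of 24318 genes, all 10 had enough counts to be tested, and 14131 genes were tested in all. The samples are 6 poly-A RNA libraries of cultured mouse brain cells labelled as astrocytes, 3 of wild-type (WT) cultures and 3 of cultures labelled as knockouts of ADGRB1, an adhesion G protein-coupled receptor (KO). The labels name no strain, animal age, culture age or treatment, and do not say which allele or which deletion the KO cells carry. Nothing in them ties a library to its own culture or animal, and the p-values rest on library-to-library spread that could be technical in part.

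Bone morphogenetic proteins (BMPs) are secreted ligands that bring together type I and type II receptor kinases, which phosphorylate the receptor Smads 1, 5 and 9. These join Smad4 in the nucleus and switch on target genes, among them the Id genes and the inhibitory Smads 6 and 7, which feed back on the receptors. Id proteins lack a DNA-binding region and keep basic helix-loop-helix (bHLH) factors and their E protein partners from binding DNA. In neural precursors BMP signalling is known to favour the astrocyte fate and to hold back oligodendrocyte formation.

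Libraries held 17460090 to 20334442 counts. Levels are CPM, library-scaled counts with TMM factors, in which 1 count was worth 0.0498 to 0.0570 CPM. Adgrb1, the targeted gene, stood at 299, 363 and 317 CPM in the WT libraries and at 158, 140 and 117 CPM in the KO libraries, so the labels and the gene went the same way in 6 of 6 libraries. All 8 astrocyte markers were present, and their summed level was 17033 to 21342 CPM in WT and 18599 to 21106 CPM in KO. Markers of other cells were present too. The summed level of 8 mature oligodendrocyte markers was 1988 to 2983 CPM in WT and 1081 to 1402 CPM in KO, and that of 6 oligodendrocyte precursor markers 1531 to 2081 CPM and 938 to 1381 CPM. In such bulk libraries fewer cells of a type and less RNA per cell cannot be told apart. A tilt with GC content ran across the libraries. In WT replicate 2, KO replicate 1 and KO replicate 2 the GC-rich genes were high and in the other 3 libraries low. The tilt of WT replicate 2 was weak (rank correlation with GC content 0.06). Its rank correlation with log2 exonic length was -0.20, beside -0.34 and -0.24 in KO replicates 1 and 2. In WT replicates 1 and 3 and KO replicate 3 that with length was 0.26, 0.26 and 0.23. Differences within each set of 3 are given beside the main results. WT replicate 2 is the only WT library of the first set and KO replicate 3 the only KO library of the second, so each difference rests on that 1 library. Over the genes tested, the log2 fold change of KO over WT had a rank correlation of 0.29 with GC content and -0.25 with log2 length.

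The BMP and Id genes did not move as a block. Id3 and Bmp7 were higher in every KO library than in any WT library and Smad7 was lower, while Id1, Id2, Id4, Bmp4, Bmp6, Smad6 and Smad9 overlapped between the groups. With the quasi-likelihood test of edgeR, 0 of the 10 genes passed at 0.05 after adjustment over all 14131 genes. Over all genes 0% passed as higher and 0% as lower. DESeq2 called 1 of the 10, Id3, as higher, where over all genes it called 17 higher and 62 lower of 12936. At an unadjusted p under 0.05 there were 3 of 10, 2 higher and 1 lower in KO, where the share over all genes was 6.16%, 2.34% higher and 3.83% lower. The groups did not overlap for the same 3 genes, 2 higher and 1 lower, against 5.28% and 5.87% of all genes. The 10 genes were gathered with earlier results of these data known, so these shares are a description. The median log2 fold change of KO over WT was 0.06 for the 10 genes and 0.01 for all genes tested.

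**Figure D1:**
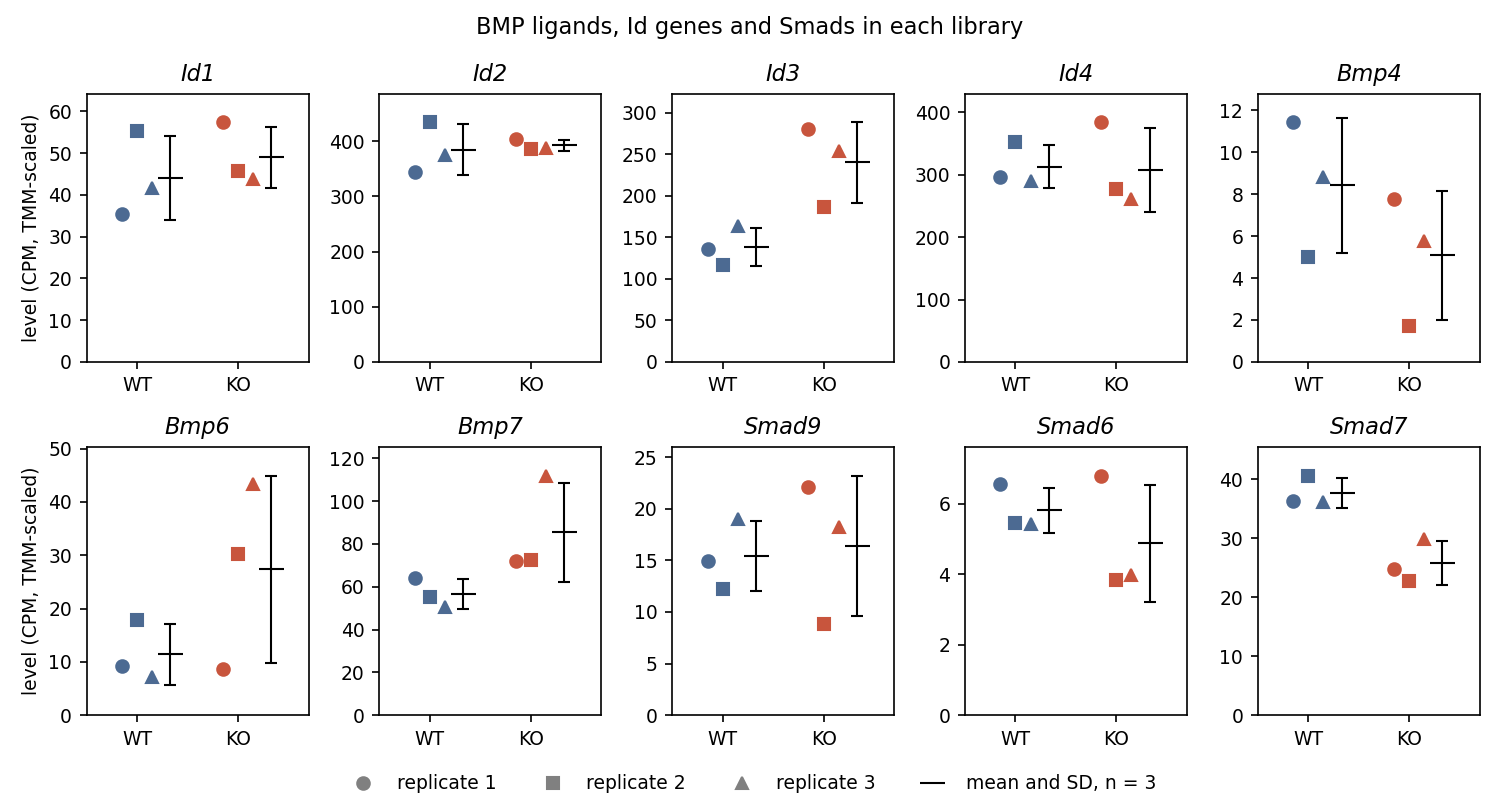
Level of each of the 10 genes in CPM (vertical axis, from 0) in the 3 WT (blue) and 3 KO (red) libraries, with marker shapes for the replicate number and a black bar for the mean and SD. Id3 and Bmp7 are higher in all KO libraries, Smad7 is lower, and the points of the other 7 genes overlap.

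The Id genes were the most abundant of the 10 on a scale per exon length. Their levels in WT, as CPM per kilobase of exon, were 158 ± 18.8 (SD, n = 3) for Id2, 81.4 ± 9.03 for Id4, 77.2 ± 13.1 for Id3 and 38.0 ± 8.70 for Id1. Id4 and Id3 were neighbours whose levels differed by less than their spread. In KO the order was Id2 at 161 ± 4.28, Id3 at 134 ± 27.0, Id4 at 79.9 ± 17.4 and Id1 at 42.2 ± 6.32 CPM per kilobase. Averaged over the 6 libraries, Id2 stood above 98.5% of the genes tested on this scale, Id3 above 97.4%, Id4 above 96.3% and Id1 above 91.7%.

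Id3, which is made by astrocytes, vessels and immune cells, was the Id gene whose groups separated. It stood at 135, 117 and 163 CPM in WT replicates 1, 2 and 3 and at 280, 186 and 254 CPM in KO. Every KO library lay above every WT library, and KO replicate 2 was the closest to WT. The means were 138 ± 23.4 and 240 ± 48.4 CPM (SD, n = 3 each), a log2 fold change of 0.80 ± 0.19 (SE), with a 95% interval of 0.37 to 1.22 and an adjusted edgeR p of 0.457. The difference in log2 CPM was 0.97 within the libraries where GC-rich genes were high and 0.77 within the others. The first value is against WT replicate 2 alone, the lowest WT library for Id3. Id3 has a GC content of 55.6%, and its log2 fold change was 0.67 (adjusted p = 0.487 with edgeR) once the trend with GC content and length was removed per library. With DESeq2 the adjusted p of Id3 was 0.0254, and it was 0.0408 in edgeR with a term for the 2 sets of 3 libraries. Fits that left out each of the 6 libraries in turn gave 0.66 to 0.95. Astrocyte marker sums, mostly Slc1a2 and Slc1a3, overlapped between the groups. On that list Gfap, a filament protein that marks reactive astrocytes, was the 1 of 8 genes higher in every KO library, against 5.28% of all genes tested. Gfap stood at 654, 593 and 589 CPM in WT and 1596, 925 and 724 CPM in KO (log2 fold change 0.82 ± 0.26, adjusted p = 0.650 with edgeR). The sums of oligodendrocyte, precursor and microglial markers (1026 to 1453 CPM in WT, 848 to 966 in KO) were lower in every KO library, and the part of Gfap-rich or other cells in the Id3 values was not tested.

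The groups of Id1, Id2 and Id4 overlapped. Id1, known as an early BMP target, stood at 35.5, 55.2 and 41.6 CPM in WT and at 57.4, 45.7 and 43.9 CPM in KO, with a log2 fold change of 0.15 ± 0.19 and a 95% interval of -0.28 to 0.59. Id2, which binds E proteins and the OLIG factors of oligodendrocytes, stood at 344, 434 and 375 CPM in WT and at 404, 385 and 388 CPM in KO, with a log2 fold change of 0.03 ± 0.14 and an interval of -0.28 to 0.34. Id4, which is known to hold back oligodendrocyte formation and to bind other Id proteins, stood at 296, 353 and 291 CPM in WT and at 384, 278 and 261 CPM in KO (log2 fold change -0.03 ± 0.18, interval -0.42 to 0.37). The upper bounds of these intervals lie below the log2 fold change of Id3. The interval of Id1 nevertheless overlaps that of Id3, 0.37 to 1.22, and that of Id4 ends right beside it. The difference between Id genes was not itself tested. Id4 shares 4.4% and 2.1% of its exonic bases with Gm49291 and A330033J07Rik on the other strand. WT replicate 2 and KO replicate 1 were the highest libraries of their groups for each of these 3 genes.

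Within the summed level of the family the share of Id3 was larger in every KO library. Id3 made up 23.3%, 17.0% and 25.6% of the summed Id level per kilobase in the WT libraries and 33.2%, 27.8% and 34.9% in the KO libraries. The share of Id2 was 44.4 ± 1.86% (SD, n = 3) in WT and 38.9 ± 3.56% in KO, that of Id4 23.0 ± 1.54% and 19.1 ± 2.26%, and that of Id1 10.7 ± 1.58% and 10.1 ± 0.70%. These shares add up to the whole in each library, so they cannot vary separately, and no test was made of them. The summed level of the 4 genes was 354 ± 29.3 CPM per kilobase in WT and 417 ± 49.8 in KO, and the groups overlapped.

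Profiles over the libraries rest on the same values as the fold changes. A gene that differs between the groups therefore lies far from relatives that do not and near other genes that do. The distances below restate the Id3 difference and add no support to it. The mean absolute difference between log2 CPM profiles, each centred on its mean over the 6 libraries, was 0.12 between Id1 and Id2, 0.13 between Id1 and Id4 and 0.31 between Id1 and Id3. Among 7960 other genes of at least 20 CPM, the 5 closest to Id3 were Hes5 (0.14), Tmem198b (0.15), Slc14a1 (0.16), 1700084C01Rik (0.16) and Rnf149 (0.17). Hes5 is a Notch target that, like the Id genes, opposes the activity of proneural bHLH factors. The 5 closest to Id1 were Athl1 (0.03), Lsm6, Psmb1, Erh and Hagh (0.04 to 0.05). These are values over 6 libraries, with no test.

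Upstream sequences are shown to set Id3, whose groups separated, beside Id2 and Id4, whose groups overlapped, and beside Smad9. RefSeq (GRCm38.p6) gave the 250 bases before the start of 7 of the 10 genes, not of Id1, Bmp7 or Smad7. Each was searched on both strands for GGCGCC, a palindrome found in BMP response elements, for GTCT, the Smad-binding element, and for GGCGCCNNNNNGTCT, in which both stand at the spacing known from the Id1 enhancer and which overlaps the other 2 by construction. GGCGCC was found once each in Id2, Id4 and Smad9 and not in Id3, Bmp4, Bmp6 or Smad6. GTCT was found 3 times in Bmp6, 2 times in Id3, once each in Id2, Bmp4, Smad6 and Smad9, and not in Id4, and of these only the Id3 matches are printed as sites. GGCGCC occurs in 9.54% of the 27025 upstream stretches of this length, GTCT in 83.0% and the joint motif in 0.07%. The joint motif was in none of the 7. Capitals mark GGCGCC, or GTCT read on either strand, and the whole stretch is given for Id4, where the annotation places no exon of the gene. The windows of Id2 and Id3 overlap an exon of a longer annotated transcript by 161 and 250 bases, so 30 bases around a match are shown. All 250 bases of the Bmp6 window, with its 3 GTCT matches, also lie in annotated exon sequence of the gene.
Id2, chr12:25096306-25096335, minus strand: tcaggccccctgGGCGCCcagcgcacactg
Id3, chr4:136143643-136143672, plus strand: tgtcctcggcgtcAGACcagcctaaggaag
Id3, chr4:136143741-136143770, plus strand: tggacccttggcgGTCTgttttgaataagg
Smad9, chr3:54755519-54755548, plus strand: gcacggccgcctGGCGCCcttccagcgcgg
Id4, chr13:48260866-48261115, plus strand: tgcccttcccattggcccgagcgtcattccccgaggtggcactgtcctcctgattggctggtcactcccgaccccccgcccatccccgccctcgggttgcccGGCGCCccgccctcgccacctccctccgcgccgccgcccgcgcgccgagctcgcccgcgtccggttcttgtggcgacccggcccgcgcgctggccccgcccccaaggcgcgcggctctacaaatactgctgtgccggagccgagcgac
These matches are letters in a short window. The stretches are rich in GC, at 62.8% in Id2 and Id3, 73.2% in Smad9 and 75.6% in Id4, and elements farther upstream lie outside them.

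The Id genes lie apart in the genome (GRCm38), Id1 at chr2:152736251-152737410 on the plus strand, Id2 at chr12:25093799-25097140 on the minus strand, and Id3 at chr4:136143497-136145755 and Id4 at chr13:48261228-48266026, both on the plus strand. Bmp4 lies at chr14:46383520-46390669 (minus strand) and Bmp6 at chr13:38345107-38500302 (plus strand). Smad9 lies at chr3:54755582-54801257 (plus strand), Smad6 at chr9:63953076-64022059 (minus strand) and Smad7 at chr18:75367529-75395935 (plus strand).

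Of the 3 ligands, Bmp7 was the most abundant in each of the 6 libraries, with 66.9% to 76.0% of their summed level per kilobase. Bmp7, at chr2:172868012-172940321 on the minus strand, is made by astrocytes, meninges and choroid plexus. It stood at 64.2, 55.4 and 50.4 CPM in WT and at 71.9, 72.3 and 112 CPM in KO. The groups did not overlap, and KO replicate 3 stood far above the other KO libraries. The means were 56.7 ± 7.01 and 85.4 ± 23.0 CPM, a log2 fold change of 0.59 ± 0.20 (SE, interval 0.15 to 1.04, adjusted p = 0.659 with edgeR). Leaving out KO replicate 3 gave a log2 fold change of 0.35. The difference in log2 CPM was 0.38 within the libraries where GC-rich genes were high. It was 0.98 within the others, where KO replicate 3 is the only KO library. The marker lists that separate the groups are those given for Id3, and their part in the Bmp7 values was not tested either.

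Bmp6, a ligand of endothelial and other cells best known for its part in iron control in the liver, varied widely among the libraries of each group. It stood at 9.18, 17.8 and 7.18 CPM in WT and at 8.59, 30.2 and 43.4 CPM in KO. WT replicate 2 and KO replicates 2 and 3 were high, KO replicate 1 lay within the WT range, and the groups overlapped. The log2 fold change was 1.27 ± 0.59 (interval -0.12 to 2.66, adjusted p = 0.819 with edgeR), and 0.77 without KO replicate 3. The difference in log2 CPM was -0.14 and 2.40 within the libraries where GC-rich genes were high and low. The value of 2.40 rests on KO replicate 3 as the only KO library. Bmp5, its close relative, had the same 3 high libraries, at 0.22, 3.08 and 0.40 CPM in WT and 0.94, 4.06 and 16.9 CPM in KO. Bmp6 shares 5.7% of its exonic bases with Txndc5 on the other strand and Bmp5 46.7% with Gm26903, so both are uncertain without strand information.

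The choroid plexus list had its 3 highest summed levels in the same libraries as Bmp6. It summed to 20.6, 102 and 87.1 CPM in WT and to 67.9, 175 and 197 CPM in KO over its 6 genes, of which 4 were tested and 3 were above 0. In those 3 libraries most of the sum came from Aqp1, a water channel, at 0.82, 80.9 and 7.23 CPM in WT and 22.9, 139 and 151 CPM in KO. Ttr, a choroid plexus marker present in every library, stood at 13.8, 11.7 and 68.8 CPM in WT and at 31.9, 21.8 and 31.9 CPM in KO. It was highest in WT replicate 3, the library where Bmp6 was lowest (7.18 CPM). The match of the summed level with Bmp6 thus rests mostly on Aqp1. Clic6, a chloride channel protein of the choroid plexus, was higher in every KO library, at 5.52, 6.95 and 6.58 CPM in WT and 10.1, 8.81 and 10.6 CPM in KO (log2 fold change 0.63 ± 0.26, adjusted p = 0.793 with edgeR). Otx2, a transcription factor of the same tissue, had a log2 fold change of 1.21 ± 0.84 and overlapped. Folr1 and Kcnj13, on the same list, were at 0.90 and 0.91 CPM at most. Among endothelial markers, the claudin Cldn5 stood at 0.71, 5.19 and 6.08 CPM in WT and 1.15, 32.7 and 64.4 CPM in KO. Cdh5, on the same list, was at 3.29 CPM at most. The 6 genes summed to 3.72 to 27.8 CPM in WT and 7.85 to 76.5 CPM in KO. Of 6 meningeal fibroblast markers, Dcn, Lum, Slc6a13 and Aldh1a2 were under 1 CPM in every library, and the list summed to 43.2 to 58.0 CPM in WT and 43.4 to 72.4 CPM in KO. The part of these cells in the Bmp6 and Bmp7 values was not tested.

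Bmp4, a ligand that turns oligodendrocyte precursors towards astrocytes, was low and variable. It stood at 11.4, 5.02 and 8.82 CPM in WT and at 7.75, 1.71 and 5.78 CPM in KO, on 32 to 209 counts. Replicate 2 was the lowest of each group, and the groups overlapped (log2 fold change -0.73 ± 0.52, interval -1.91 to 0.45, adjusted p = 0.833 with edgeR). Without KO replicate 2 the log2 fold change was -0.32, without WT replicate 1 it was -0.45, without KO replicate 1 it was -1.17, and with limma voom it was -1.57. The oligodendrocyte precursor list was likewise lowest in replicate 2 of each group, at 1921, 1531 and 2081 CPM in WT and 1182, 938 and 1381 CPM in KO. Its part in the Bmp4 values was not tested. Bmp4 shares 4.0% of its exonic bases with Gm15217 on the other strand.

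Of all 14 ligands listed, 5 (Bmp8a, Bmp8b, Bmp10, Gdf2 and Gdf7) had 0 counts in every library. A level of 3 counts in a library would be 0.149 to 0.171 CPM. Bmp3, Gdf5 and Gdf6 had too few counts to be tested. Bmp2 stood at 2.19, 1.42 and 2.99 CPM in WT and at 0.52, 1.34 and 0.95 CPM in KO (log2 fold change -1.23 ± 0.65). All its KO libraries lay below its WT libraries, on 10 to 60 counts. WT replicate 2 and KO replicate 2 both held 25 counts, so only the library scaling parts them. Bmp15, an oocyte ligand, held at most 25 counts (log2 fold change 1.46 ± 1.06). Its groups did not overlap either, at 0, 0.57 and 0.55 CPM in WT and 1.31, 1.07 and 0.75 CPM in KO.

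**Figure D2:**
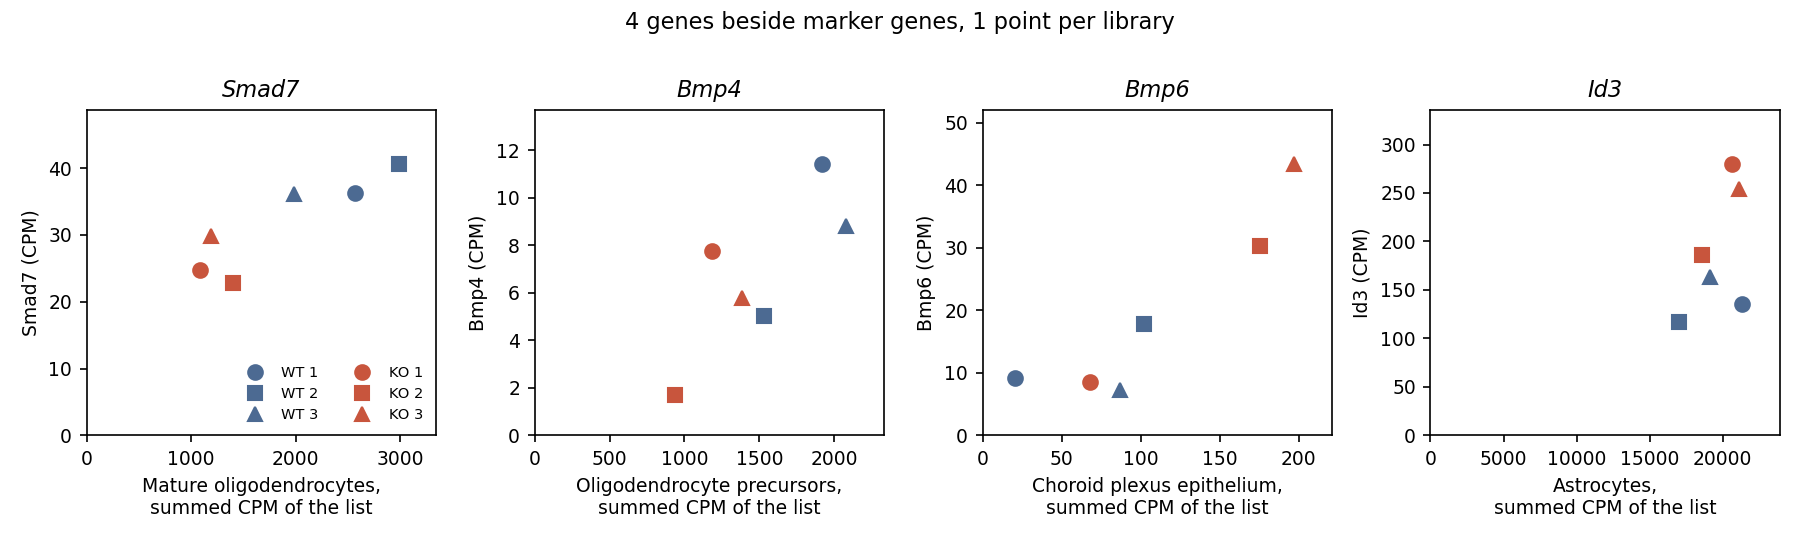
Level of Smad7, Bmp4, Bmp6 and Id3 (vertical axes, CPM) against the summed CPM of a marker list (horizontal axes), with 1 point for each of 3 WT (blue) and 3 KO (red) libraries. Smad7 and the mature oligodendrocyte markers both separate the groups, and the Id3 groups separate while the astrocyte sums overlap. Bmp6 is high in the 3 libraries with the highest choroid plexus sum, which in those libraries is mostly the single gene Aqp1.

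Smad7, an inhibitory Smad that blocks BMP and TGF-beta receptors and is known to promote oligodendrocyte differentiation, was the gene lower in KO. It stood at 36.3, 40.6 and 36.1 CPM in WT and at 24.8, 22.7 and 29.9 CPM in KO. The groups did not overlap and the WT libraries lay close together. The means were 37.7 ± 2.56 and 25.8 ± 3.69 CPM, a log2 fold change of -0.54 ± 0.17 (SE, interval -0.93 to -0.16, adjusted p = 0.628 with edgeR). It stayed lower in each of 6 fits without a library, from -0.66 to -0.46, and was at -0.77 and -0.27 within the libraries where GC-rich genes were high and low. Mature oligodendrocyte markers separated the groups as well, with 8 of 8 lower in every KO library than in any WT library. So were 3 of 6 microglial markers, and 5.87% of all genes tested. Their part in the Smad7 difference was not tested.

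Smad6, the inhibitory Smad that acts mainly on BMP receptors, stood at 6.56, 5.47 and 5.43 CPM in WT and at 6.81, 3.84 and 3.99 CPM in KO. KO replicate 1 was the highest of all libraries, so the groups overlapped (log2 fold change -0.25 ± 0.35, interval -1.03 to 0.52, and -0.58 without KO replicate 1). Smad9, a receptor Smad of the BMP branch, stood at 14.98, 12.3 and 19.0 CPM in WT and at 22.1, 8.86 and 18.2 CPM in KO. Replicate 2 was the lowest of each group, the groups overlapped, and the log2 fold change was 0.09 ± 0.33 (interval -0.65 to 0.83). Its sign turned without WT replicate 2 (-0.06), without KO replicate 1 (-0.19) and with limma voom (-0.40).

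Smad9 was also a minor form among the receptor Smads. In WT it stood at 2.87 ± 0.64 CPM per kilobase (SD, n = 3), against 11.9 ± 2.17 for Smad5 and 5.29 ± 1.60 for Smad1. Smad4, the partner of all receptor Smads, stood at 14.1 ± 0.84 CPM per kilobase. Of the inhibitory Smads, Smad7 was at 8.34 ± 0.57 and Smad6 at 1.82 ± 0.20. The log2 fold changes of Smad1, Smad4 and Smad5 were -0.31 ± 0.23, -0.10 ± 0.14 and -0.06 ± 0.17. Thus 5 of 6 Smads were below 0, where 51.9% of all genes tested were above 0. Of the 6, 1 had an unadjusted p under 0.05, against 6.16% of all genes tested.

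**Figure D3:**
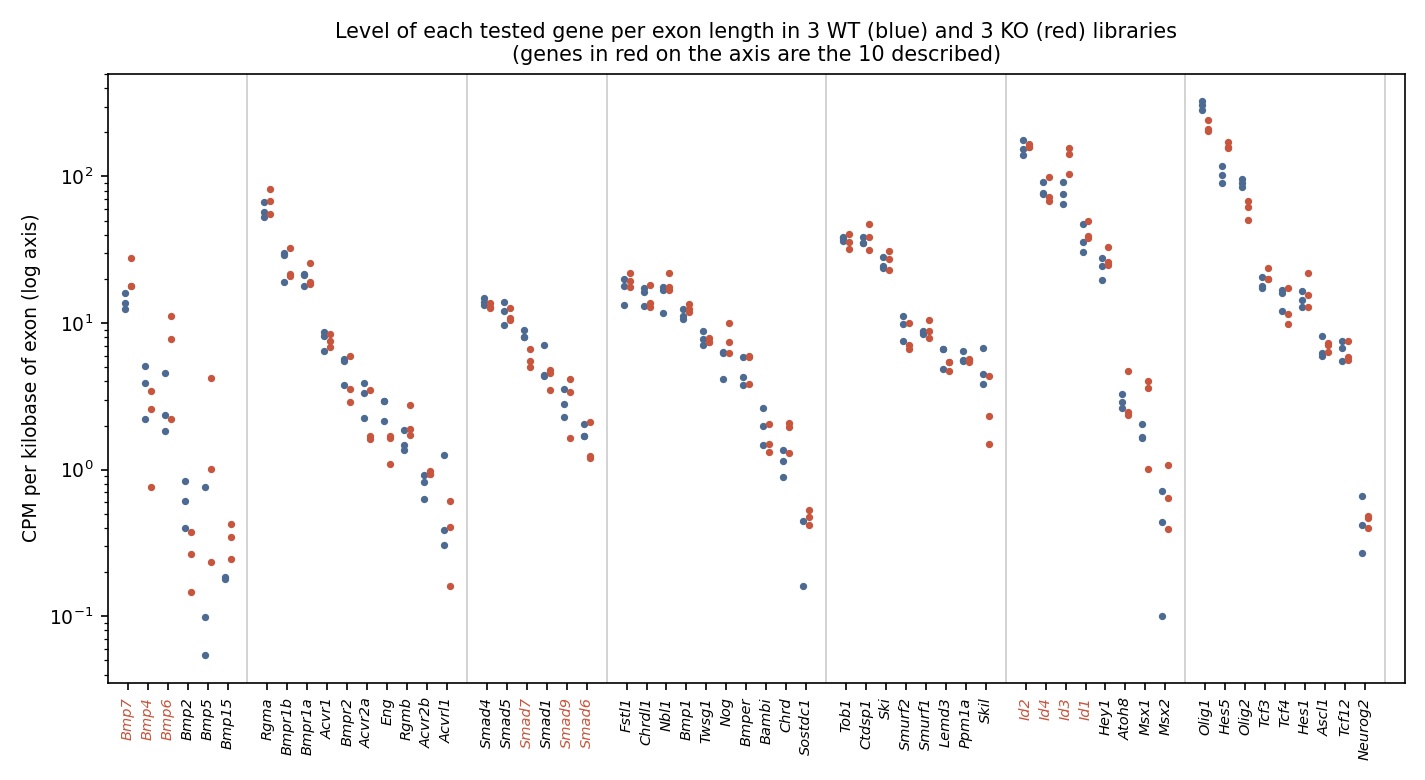
Level per exon length (CPM per kilobase, log axis, values of 0 left out) of each tested gene of the BMP lists and the Id partners, with 3 WT points in blue and 3 KO points in red, ordered by level within each role. Olig1, Id2, Hes5, Olig2, Id4 and Id3 lie highest in WT, Id1 lies below them and below Rgma, Bmp7 is the highest ligand, and Smad9 and Smad6 are the lowest Smads.

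The rest of the pathway was present at levels that differed widely. The 7 lists of ligands, receptors, Smads, antagonists, regulators, targets and Id partners hold 62 genes beside the 10, of which 47 were tested. Of these 47 genes, 2 were higher and 3 lower at an unadjusted p under 0.05, or 10.6%. The share over all genes tested was 6.16%, with 2.34% higher and 3.83% lower. Of the 47 genes, 25 had a log2 fold change above 0, as did 51.9% of all genes tested, and 0 passed over all genes tested. Their median log2 fold change was 0.02.

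Among 10 tested receptors and co-receptors the median log2 fold change was -0.04. The type I receptors Bmpr1a and Bmpr1b had 20.2 ± 1.96 and 26.1 ± 6.05 CPM per kilobase in WT and log2 fold changes of 0.06 ± 0.17 and -0.06 ± 0.22. The co-receptor Rgma was the most abundant at 59.1 ± 7.44 CPM per kilobase in WT (log2 fold change 0.21 ± 0.17). Eng, a co-receptor of vessels that binds BMP9 and TGF-beta, had the smallest p. It stood at 11.9, 8.66 and 11.8 CPM in WT and at 4.40, 6.68 and 6.88 CPM in KO, without overlap (log2 fold change -0.85 ± 0.29, adjusted p = 0.673 with edgeR). The log2 fold change was 0.44 ± 0.25 for Rgmb and -0.48 ± 0.34 for Acvr2a, whose exons overlap Orc4 on the other strand.

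Among 10 tested antagonists and extracellular modulators 7 were above 0, against 51.9% of all genes tested, and the median log2 fold change was 0.19. Chrd, which encodes the BMP-binding protein chordin, stood at 8.47, 5.58 and 7.13 CPM in WT and at 12.1, 13.0 and 8.18 CPM in KO, where KO replicate 3 lay within the WT range (log2 fold change 0.65 ± 0.29, adjusted p = 0.803 with edgeR). Its difference in log2 CPM was 1.16 within the libraries where GC-rich genes were high and 0.07 within the others, and its exons overlap Thpo on the other strand. Nog, which encodes noggin, had a log2 fold change of 0.51 ± 0.28, with differences of 1.06 and -0.0047 within the same sets. The log2 fold change was 0.30 ± 0.20 for Nbl1 and 0.21 ± 0.18 for Fstl1, the most abundant of the list per kilobase in WT. Of 8 intracellular regulators 0 had an unadjusted p under 0.05, and the smallest p was that of Skil, a corepressor of Smads, with a log2 fold change of -0.88 ± 0.39.

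Of 5 targets other than the Id genes and inhibitory Smads, 0 had an unadjusted p under 0.05. The log2 fold change of Hey1 was at 0.23 ± 0.18, Bambi, a decoy receptor, at -0.32 ± 0.31, and Msx1 at 0.69 ± 0.46, with KO replicate 3 below every WT library. The median log2 fold change of all 11 targets was 0.11, and Id3 and Smad7 were the 2 of them past that threshold.

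Of 10 Id partners, 1 was higher and 2 were lower at an unadjusted p under 0.05, where the shares over all genes tested were 2.34% and 3.83%. The log2 fold changes of the E protein genes Tcf3, Tcf4 and Tcf12 were 0.20 ± 0.15, -0.21 ± 0.22 and -0.06 ± 0.17. Olig2, the bHLH factor that directs oligodendrocyte formation, stood at 228, 216 and 243 CPM in WT and at 156, 127 and 171 CPM in KO (log2 fold change -0.59 ± 0.15, adjusted p = 0.474 with edgeR). Olig1 stood at 613, 705 and 667 CPM in WT and at 529, 439 and 457 CPM in KO (log2 fold change -0.48 ± 0.14, adjusted p = 0.612 with edgeR). Hes5 was at 139, 122 and 160 CPM in WT and 218, 213 and 233 CPM in KO (log2 fold change 0.65 ± 0.14, adjusted p = 0.369 with edgeR). None of these 3 overlapped between the groups. Olig1 and Hes5 share 7.3% and 31.8% of their exonic bases with a gene on the other strand. Olig2 is also on the oligodendrocyte precursor list, of which 5 of 6 genes separated the groups as lower in KO, against 5.87% of all genes tested.

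**Figure D4:**
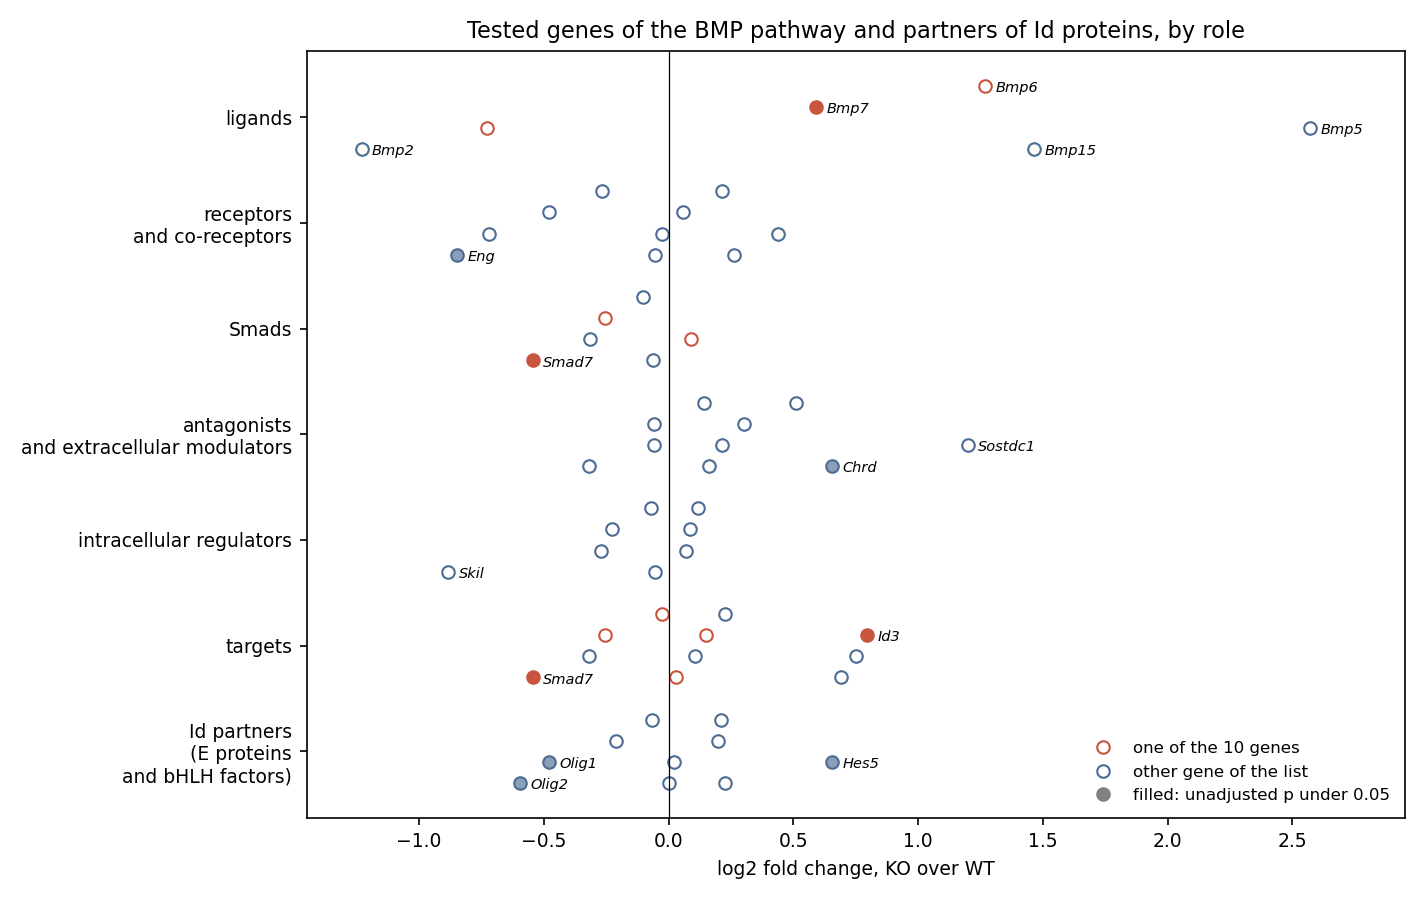
Log2 fold change of KO over WT (horizontal axis) for each tested gene of 7 role lists (rows), with the 10 genes in red, the others in blue, and filled points for an unadjusted p under 0.05. Filled points lie on both sides of 0, with Id3, Bmp7, Chrd and Hes5 to the right and Smad7, Eng, Olig1 and Olig2 to the left.

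**Figure D5:**
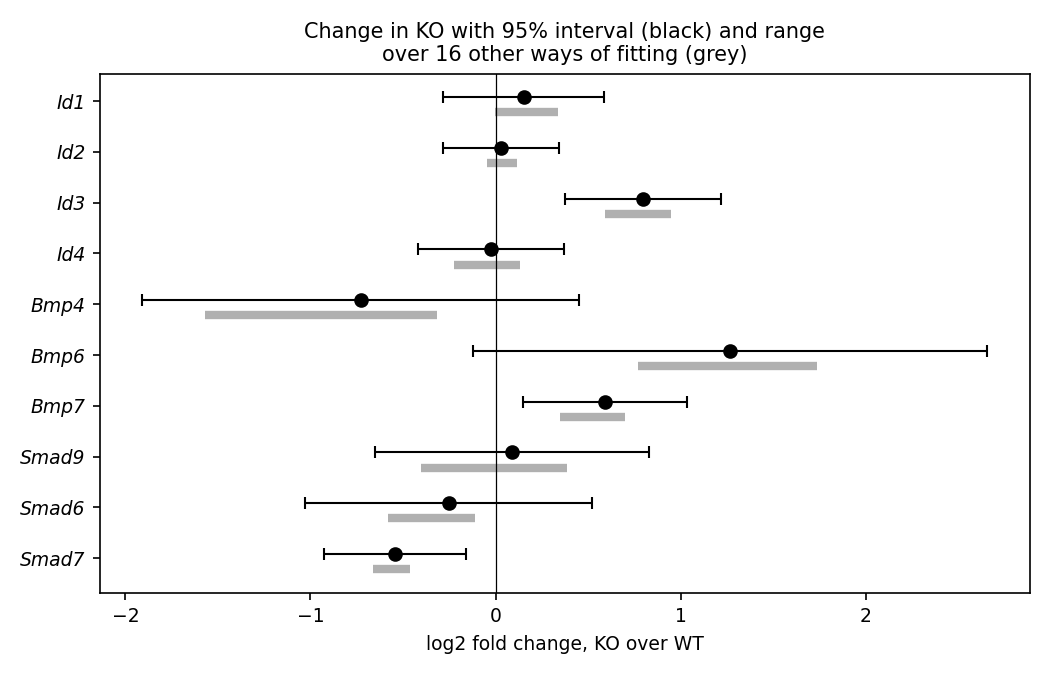
Log2 fold change of KO over WT for each of the 10 genes with its 95% interval from edgeR (black) and the lowest to highest value over 16 other ways of fitting (grey). The interval lies on 1 side of 0 for Id3, Bmp7 and Smad7, and the grey ranges of Id1, Id2, Id4 and Smad9 include 0.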

How the data were processed

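The authors deposited 1 table of estimated counts per gene symbol for the 6 libraries, which were not normalized. TopHat2, featureCounts and the builds GRCm38 and mm9 are named in the submitters' processing notes. Of versions, annotation, strand and shared reads nothing is stated there or in the labels. Values were rounded, since 0.711% to 0.847% of each library's were over 0.01 away from an integer. Pairs of replicates had chi-square values of 22.3 to 89.1 per degree of freedom, so none was counted as a duplicate.

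KO was compared with WT in edgeR 4.0.16 (R 4.3.3) with filterByExpr, TMM, robust quasi-likelihood F tests and Benjamini-Hochberg adjustment over all 14131 genes tested. Intervals are at 95%, from the same fit. Log2 CPM used a prior count of 2. Positions, exonic lengths and GC content (of the longest transcript) are from GENCODE M21 on GRCm38, which matched 95.8% of symbols and gave GC content and length for 96.3% of genes tested.

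The 10 genes and all lists were chosen with earlier results of these data known. Named genes are the 10, up to 3 others per list by smallest p, the most abundant of each list per exon length, and the 5 nearest profiles of Id1 and Id3. Other genes, such as receptors, E proteins and cell type markers, are named for their role after their values were seen. Alternatives were other scalings and filters, DESeq2 1.42.0, limma 3.58.1 voom, the replicate number as a block, 2 corrections for the GC trend, 1 surrogate variable from sva 3.50.0, and leaving out each library.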

Additional observations from a re-analysis of the deposited data

How the results depend on the processing

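Id3, Bmp6 and Bmp7 stayed higher and Bmp4, Smad6 and Smad7 lower in all 16 alternatives. Of the 10 genes, 1 passed over all genes, Id3, as higher. It did so with DESeq2 (1 gene, log2 fold change 0.79), the batch term for the GC trend (1 gene, 0.88) and the replicate block (1 gene, 0.79). Over all genes those fits called 17 of 12936, 14 of 14131 and 7 of 14131 as higher. The adjusted p of Id3 ran from 0.0254 to 0.988 over the alternatives. Id3 and Smad7 kept an unadjusted p under 0.05 in all 16, and Bmp7 in 15, the exception being the fit without WT replicate 3. Signs turned for Id1 with the GC and length trend removed (-0.0034), for Id2 with total counts (-0.044), the batch term (-0.014) and 1 surrogate variable (-0.0061), for Id4 with the GC and length trend removed (0.13), for Smad9 with limma voom (-0.40), for the Smad phosphatase gene Ctdsp1 with 1 surrogate variable (-0.028), and for Smad5 with the GC and length trend removed (0.086), the batch term (0.058) and 1 surrogate variable (0.050). Without a library the values ran from -0.045 to 0.12 for Id2, -0.23 to 0.079 for Id4, -0.19 to 0.39 for Smad9, -0.056 to 0.25 for Ctdsp1 and -0.20 to 0.068 for Smad5. The cause was not tested.

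Genes higher and lower over all genes, 0 and 0 in the fit reported, were 2 and 4 without a low-count filter, 17 and 62 with DESeq2, 2 and 6 with limma voom, 2 and 6 with the GC and length trend removed, 14 and 74 with the batch term, 23 and 70 with 1 surrogate variable, and 0 to 4 and 0 to 27 without a library. Of the other pathway and partner genes, Hes5 passed as higher with DESeq2, the batch term and 1 surrogate variable (1 gene each), and Olig1 as lower with 1 surrogate variable (1 gene).

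With the replicate block, 7 genes were higher and 37 lower. Same-numbered libraries had deviations that correlated at 0.09 to 0.28, over 0.1 in 2 of 3 pairs. Each of the 6 libraries correlated best with its own number, a hint from the data and not from the design. For KO replicate 1 this was nearly a tie, at 0.0873 with WT replicate 1 and 0.0869 with WT replicate 2. The closest pair, WT and KO replicate 3, also had the lowest rank correlations with GC content, -0.33 and -0.39. The part of the GC trend in this pairing was not tested. Low counts limit Bmp4, Smad6 and the other ligands most.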
